A study of Rattus norvegicus with 46 samples.

Results

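Lung RNA of aged male Fischer 344 rats, an inbred laboratory strain, was compared 1 day after inhalation of crystalline silica, across every gene with enough counts to test. The silica group had breathed Min-U-Sil 5, a respirable quartz dust, by whole-body inhalation on 5 days, 6 hours each, with 15 mg/m3 of dust. The air group had breathed filtered air. The labels name no genetic alteration, and the word aged comes from the title of the series, with no age in the labels. The members are the 12 lung samples labelled 1 day, 6 of silica and 6 of air, of 46 samples in the series. Stranded libraries were made from polyadenylated RNA of lung tissue, and the values are estimated counts per gene.

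Quartz particles that reach the alveoli are taken up by alveolar macrophages, in which they can damage lysosomes and lead to the release of interleukin 1. Epithelial cells answer interleukin 1 and interleukin 17 with chemokines that attract neutrophils and with antimicrobial proteins. Alveolar type 2 cells make surfactant and renew the flat type 1 cells through which gas is exchanged with the capillaries.

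Total counts were 13.4 M to 19.2 M per sample, with 18853 to 19468 genes detected. Air samples 02 and 07 were near-identical, with 10.7% of genes at p under 0.05 in a chi-square comparison of their counts, as were air samples 04 and 08 at 9.58%, against 22.8% to 37.9% in the other pairs within a group. Each of these pairs was averaged and counted once, which leaves 6 silica and 4 air libraries (02-07, 04-08, 05 and 06). The labels do not say that samples are separate animals, so a p-value reflects only how far these libraries spread, which may be technical. Air library 04-08 stood apart in cell division, ribosomal protein and natural killer cell genes, given with those lists. All 12 lung identity genes looked up were expressed, and their summed level was 33777 to 37897 CPM (counts scaled to library size) in silica and 29227 to 33027 CPM in air libraries. In bulk tissue a change in the number of cells of a type and a change in RNA per cell cannot be told apart.

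Of 15724 genes tested, 1196 (7.61%) were higher and 640 (4.07%) lower in silica than in air lungs at an adjusted p under 0.05 (edgeR's quasi-likelihood test, Benjamini-Hochberg adjustment over all genes tested). The count of calls lay between 1188 without air library 06 and 2240 without air library 04-08. The lower genes numbered 337 without air library 06, 417 without air library 05 and 851 without air library 04-08, with the higher genes at 851, 849 and 1389 in those fits. Therefore gene groups are described by the genes that passed in all 11 fits, the one with all libraries and the 10 that each left out 1 library. These were 709 higher (4.51%) and 271 lower genes (1.72%), and the words rose and fell are kept for them. A gene group's counts are set beside these shares and its median log2 fold change (silica over air) beside the 0.00 of all genes tested. Over all genes tested, every silica library was above every air library in 1165 (7.41%) and below in 634 (4.03%). Genes named for passing in all 11 fits would mostly be separate by that choice. A lack of overlap is therefore given as description and not as further support.

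Most changes were small and concerned rises more than falls. Of the genes called with all libraries, 162 were higher and 12 lower by at least 2-fold, 208 higher and 33 lower by 1.5-fold to 2-fold, and 826 higher and 595 lower by less. The median size of the log2 fold change over the called genes was 0.33, and the median standard error over all genes was 0.08. Among the 2339 genes at 100 CPM or more, 292 were higher and 206 lower. For 6566 genes (41.8%) the whole 95% interval of the change lay within 1.2-fold in either direction.

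**Figure D1:**
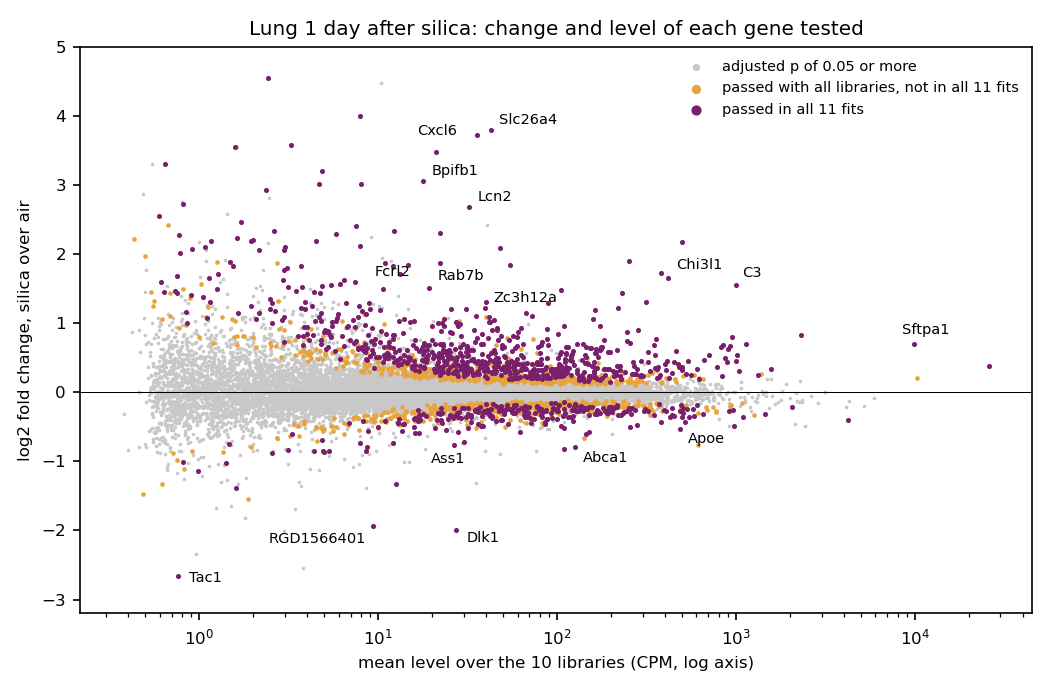
Log2 fold change, silica over air, against the mean level over 10 libraries in CPM on a log axis, 1 point a gene. Genes that passed in all 11 fits (709 higher, 271 lower) lie at every level, with larger rises than falls. LOC100911882, listed at 0 in each air library, lies above the plotted range.

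Sums of marker genes were apart between the groups for some cell types and overlapped for others. Of 18 neutrophil markers 8 rose and 1 fell, and their summed level was 1283 to 1737 CPM in silica and 441 to 529 CPM in air libraries. Cd177, a surface protein of mature neutrophils, was at 632, 741 and 807 CPM in silica libraries (lowest, median and highest of 6), against 179, 186, 149.7 and 124 CPM in air libraries 02-07, 04-08, 05 and 06, the order used throughout. Its log2 fold change was 2.18 ± 0.12 (± SE throughout, where no SD is named), and 66.7% of the samples had a count for it that was not whole, which leaves its level uncertain. Cd177 makes up a large part of the neutrophil sum. The mean log2 CPM over the neutrophil list was 4.04 to 4.41 in silica and 3.33 to 3.71 in air libraries. The granule genes Ltf, Mpo, Elane and Prtn3 of immature neutrophils were too low to test, at most 0.557 CPM in silica and 0.422 CPM in air libraries. Of 17 alveolar macrophage markers 8 passed in all 11 fits, with a median of 0.02 and a summed level of 1369.7 to 1517 CPM in silica and 1134 to 1259 CPM in air libraries; Marco was at most 0.780 CPM in silica and 0.258 CPM in air libraries. Of 21 markers of monocytes and interstitial macrophages 8 rose and 1 fell (median 0.44), among the rises C1qa, a chain of the first complement component (0.66 ± 0.07), and Folr2, a folate receptor (0.72 ± 0.11). Their sums overlapped, at 1403 to 1622 CPM in silica and 1468 to 1766 CPM in air libraries, and the 1 gene that fell, Apoe, was at 411 ± 24.9 CPM in silica (mean ± SD, n = 6) and 593 ± 44.6 CPM in air libraries (n = 4). The mean log2 CPM over the list did not overlap, at 4.94 to 5.15 in silica and 4.69 to 4.87 in air libraries. The mesothelium sum was 1986 to 2341 CPM in silica and 1294 to 1458 CPM in air libraries, where C3, the central complement component that many cells make, was the 1 gene of 17 to pass in all 11 fits (1.55 ± 0.08). C3 alone had a mean of 1349 CPM in silica and 462 CPM in air libraries, so it makes up a large part of this sum. The mean log2 CPM over the mesothelium list overlapped, at 4.01 to 4.77 in silica and 4.25 to 4.58 in air libraries (median log2 fold change 0.05). The part that cell composition has in the phagocyte and epithelial gene groups described further on was not tested.

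Natural killer cell, T cell and muscle markers varied between libraries of the same group. The natural killer cell sum was 393 to 1365 CPM in silica and 615 to 1384 CPM in air libraries, with silica library 10 at 1365 CPM and air library 04-08 at 1384 CPM far above the others. Of its 21 genes none passed with edgeR, DESeq2 or limma and 1 had an unadjusted p under 0.05. The T cell sum was 365 to 544 CPM in silica and 347 to 513 CPM in air libraries, where 1 of 24 genes, the costimulatory receptor gene Icos, rose (0.63 ± 0.11). The B cell and plasma cell sum was 753 to 788 CPM in silica and 686 to 730.5 CPM in air libraries, without overlap, and 1 of its 16 genes rose (Irf4, 0.83 ± 0.12). The mean log2 CPM over this list did overlap, at 3.52 to 3.73 in silica and 3.50 to 3.75 in air libraries. Its median log2 fold change was -0.02, with 9 genes negative. Erythroid genes summed to 3602 to 6675 CPM in silica and 5306 to 8294 CPM in air libraries, and cardiac and skeletal muscle genes to 29.5 to 541 CPM in silica and 36.9 to 260.1 CPM in air libraries. Both overlap. None of the 22 pericyte and smooth muscle markers passed with edgeR or limma, against 1 with DESeq2 and 6 at an unadjusted p under 0.05.

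**Figure D2:**
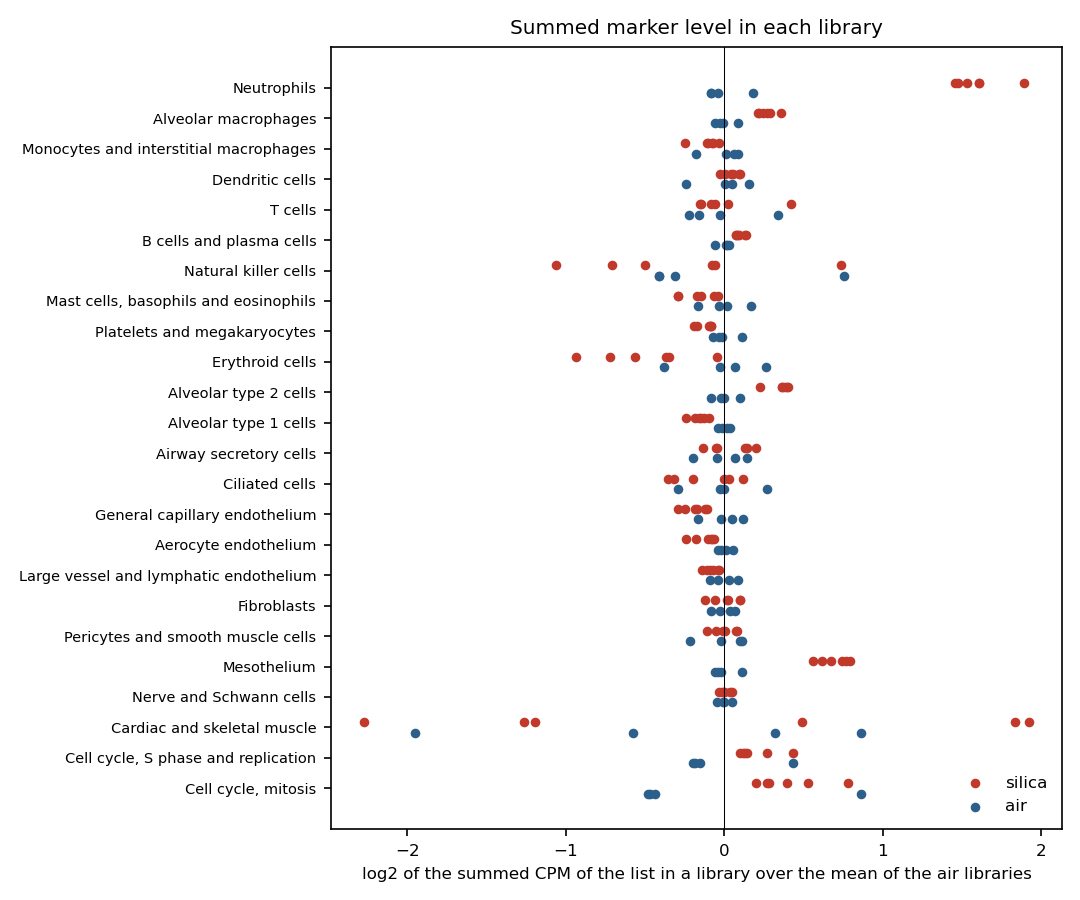
Summed CPM of each marker list in a library over the mean of the air libraries, as log2, 1 point a library, with silica points above air points in each row. Neutrophil and type 2 cell sums are higher and type 1 cell sums lower in every silica library than in any air library. The mesothelium sum, of which C3 makes up a large part, is also higher, and natural killer cell sums spread widely within both groups.

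Genes of mucosal defence and chemokines stood among the larger rises, ranks 9 to 24 by size of the genes that passed in all 11 fits. Itih1, an inter-alpha-trypsin inhibitor heavy chain that stabilises hyaluronan, was at 5.84, 7.94 and 8.55 CPM in silica libraries, against 0.594, 1.21, 0.971 and 0.491 CPM in air libraries. The log2 fold change was 3.20 ± 0.23 (adjusted p = 1.54e-06). The groups lay far apart, with the lowest silica library above every air library, as in each gene of this paragraph. Bpifb1, a secreted antimicrobial protein of airway epithelium, had 17.2, 27.9 and 38.2 CPM in silica and 6.24, 2.04, 1.79 and 2.95 CPM in air libraries, a log2 fold change of 3.06 ± 0.37. Lpo, the lactoperoxidase of airway secretions, was at 2.24, 3.34 and 5.77 CPM in silica against 0.357, 0.637, 0.374 and 0.491 CPM in air libraries (2.93 ± 0.30). Both encode proteins released onto mucosal surfaces. Ccl22, a ligand of Ccr4, was at 5.30, 6.76 and 9.99 CPM in silica and 0.594, 0.382, 1.49 and 1.11 CPM in air libraries (3.02 ± 0.32). Smtnl1, a smoothelin-like muscle protein, rose by 3.31, Tm4sf19, a membrane protein gene of the osteoclast lineage, by 2.34, the transmembrane channel-like gene Tmc5 by 2.29 and Fcamr, a receptor for IgA and IgM, by 2.23 on the log2 scale. Mab21l3 (2.47), Ccl12 (2.73) and the unnamed gene LOC102550137 (2.28) completed these ranks together with Spp1, Lcn2, Cxcl2, Retnla and Mmp12.

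Targets and partners of interleukin 17 had the highest share of risen genes among the 142 gene lists counted. Of 19 members tested, 12 rose and the median log2 fold change was 0.83. The receptor chains Il17ra (0.06 ± 0.05, adjusted p = 0.522) and Il17rc (-0.04 ± 0.07, adjusted p = 0.795) did not pass. For 12 of the 19 members RefSeq gives a promoter window (GRCr8, 250 bases before to 50 after the gene's start). The letters GGGANNTTC, a core of the NF-kappaB motif read on both strands, stand in 6 of these 12 windows and in 3.93% of all 27457 rat promoter windows. All 6 genes with the match rose, of 9 risen genes with a window, and they are printed here, 5′ to 3′ on the gene's strand, with the matched bases in capitals, because they share both features.
Cxcl6: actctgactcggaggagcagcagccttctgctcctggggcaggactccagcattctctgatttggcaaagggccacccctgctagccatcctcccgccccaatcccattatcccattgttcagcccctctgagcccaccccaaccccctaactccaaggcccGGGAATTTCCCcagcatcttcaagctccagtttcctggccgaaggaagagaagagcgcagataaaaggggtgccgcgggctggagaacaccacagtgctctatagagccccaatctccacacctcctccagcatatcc
Lcn2: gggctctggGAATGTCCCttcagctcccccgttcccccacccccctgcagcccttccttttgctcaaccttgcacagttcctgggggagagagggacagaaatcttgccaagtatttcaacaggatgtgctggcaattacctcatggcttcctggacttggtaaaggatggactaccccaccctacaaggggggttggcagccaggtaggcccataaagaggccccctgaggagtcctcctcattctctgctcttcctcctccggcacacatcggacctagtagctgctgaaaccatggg
S100a9: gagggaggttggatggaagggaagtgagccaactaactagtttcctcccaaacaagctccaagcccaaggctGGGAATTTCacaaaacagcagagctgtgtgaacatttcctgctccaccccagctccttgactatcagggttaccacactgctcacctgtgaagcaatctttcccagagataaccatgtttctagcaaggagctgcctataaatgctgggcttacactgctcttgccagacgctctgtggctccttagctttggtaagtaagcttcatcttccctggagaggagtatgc
Cxcl1: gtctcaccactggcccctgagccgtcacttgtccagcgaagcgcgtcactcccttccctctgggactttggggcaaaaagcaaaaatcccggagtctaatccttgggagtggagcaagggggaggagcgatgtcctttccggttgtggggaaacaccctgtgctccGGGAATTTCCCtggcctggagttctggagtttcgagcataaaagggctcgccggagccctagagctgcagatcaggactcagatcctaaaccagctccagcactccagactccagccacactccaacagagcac
Pigr: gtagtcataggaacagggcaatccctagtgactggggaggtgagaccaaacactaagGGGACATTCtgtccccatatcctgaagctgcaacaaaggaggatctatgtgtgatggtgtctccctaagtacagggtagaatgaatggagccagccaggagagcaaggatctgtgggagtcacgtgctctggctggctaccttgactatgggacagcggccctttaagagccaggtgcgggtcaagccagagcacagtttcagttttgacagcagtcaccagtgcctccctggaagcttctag
Nfkbiz: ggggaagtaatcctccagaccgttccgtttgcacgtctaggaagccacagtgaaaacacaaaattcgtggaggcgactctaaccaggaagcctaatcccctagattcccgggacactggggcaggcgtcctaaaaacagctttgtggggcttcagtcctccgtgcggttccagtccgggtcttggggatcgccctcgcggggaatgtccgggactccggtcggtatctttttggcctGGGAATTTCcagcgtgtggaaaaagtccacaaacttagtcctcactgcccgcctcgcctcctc
The windows are chr14:17596368-17596667 on the minus strand for Cxcl6, chr3:36081731-36082030 on the minus strand for Lcn2, chr2:178490573-178490872 on the minus strand for S100a9, chr14:17479272-17479571 on the minus strand for Cxcl1, chr13:44850932-44851231 on the plus strand for Pigr and chr11:58251471-58251770 on the plus strand for Nfkbiz. Within them the match begins at -88 in Cxcl6, -241 in Lcn2, -178 in S100a9, -84 in Cxcl1, -193 in Pigr and -13 in Nfkbiz relative to the gene's start. In Cxcl6 and Cxcl1 there are 2 matches that overlap, 1 on each strand. A match describes letters only and shows no binding. The list was chosen with earlier results of these data known, and 9 of its 12 windows belong to genes that rose. That match and rise coincide is therefore description and not a test. The same letters were looked up in other lists. Among NF-kappaB subunits and inhibitors they stand in 5 of 19 windows, and 2 of these belong to genes called higher with all libraries (Nfkbiz and Nfkb2). Among chemokine ligands they stand in 6 of 24 windows, and 4 of these belong to genes called higher (Ccl7, Cxcl6, Cxcl1 and Cxcl11).

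The 6 genes with printed windows encode proteins of different kinds, and whether 1 signal links their rises was not tested. Cxcl6, a neutrophil attractant, was at 37.6, 57.0 and 76.8 CPM in silica libraries, against 4.46, 5.73, 4.63 and 2.33 CPM in air libraries, and Cxcl1, another ligand of Cxcr2, at 59.7, 72.0 and 100.3 against 22.3, 25.9, 23.4 and 13.5 CPM. Lcn2, which binds bacterial siderophores, was at 38.7, 50.3 and 53.9 CPM in silica and 8.44, 7.14, 9.86 and 5.16 CPM in air libraries (2.68 ± 0.16, adjusted p = 3.08e-06). S100a9, a subunit of calprotectin that neutrophils carry in bulk, was at 303, 333 and 479 CPM in silica and 111, 81.4, 89.9 and 99.4 CPM in air libraries (1.90 ± 0.14). In each of these 4 genes every silica library was above every air library. Pigr, which carries IgA across epithelium, was at 2436, 2835 and 3030.1 CPM in silica and 1684, 1575, 1481 and 1518 CPM in air libraries (0.83 ± 0.06, adjusted p = 2.83e-06). Nfkbiz, a nuclear cofactor of NF-kappaB needed for many interleukin 17 targets, was at 33.8, 44.9 and 53.5 CPM in silica and 28.7, 29.2, 27.2 and 23.6 CPM in air libraries (0.70 ± 0.11, adjusted p = 0.00155). Here too the groups did not overlap.

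Among sensors and regulators of innate signalling, some feedback genes rose and others were not called, and no NF-kappaB subunit passed in all 11 fits. Of 24 NF-kappaB subunits and inhibitors 5 rose, with a median of 0.14. Zc3h12a, a ribonuclease that degrades inflammatory messengers, was at 48.3, 49.5 and 56.8 CPM in silica and 22.7, 24.7, 20.6 and 20.3 CPM in air libraries (1.21 ± 0.07, adjusted p = 1.94e-07), without overlap. Its estimated counts were whole in none of the samples, so its level is uncertain to the extent that reads were shared. Bcl3 (0.64 ± 0.10) and Birc3 (0.61 ± 0.07), both induced by NF-kappaB, rose as well. The inhibitor genes Nfkbia and Tnfaip3 were not called with all libraries. Of the subunit genes, Rel and Nfkb2 passed with all libraries but not in each fit with 1 left out, and Rela (-0.07 ± 0.04, adjusted p = 0.370) and Nfkb1 (0.10 ± 0.05, adjusted p = 0.212) did not pass. Of 33 Toll-like and NOD-like receptors and adaptors 5 rose (median 0.19), and their summed level was 928 to 1013 CPM in silica and 827 to 895 CPM in air libraries. Tlr5, the flagellin receptor, was at 9.62, 11.3 and 13.8 CPM in silica and 7.37, 5.73, 4.78 and 6.02 CPM in air libraries (0.93 ± 0.13). Tlr2 rose by 0.71, the inflammasome sensor Nlrp3 by 0.51 and the lipopolysaccharide coreceptor Cd14 by 0.45, whereas Tlr4 gave 0.07 ± 0.05 (adjusted p = 0.412).

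In the tumour necrosis factor superfamily 4 of 32 members rose, a share of 12.5% (median 0.16). Tnfrsf9, a costimulatory receptor also called 4-1BB, was at 3.13, 4.34 and 5.08 CPM in silica and 1.19, 1.02, 1.2 and 0.676 CPM in air libraries (2.06 ± 0.20, adjusted p = 2.54e-05). Tnfrsf11a, the receptor RANK of osteoclast precursors, rose by 1.03, Ltb by 0.85 and Tnfsf13, the B cell factor APRIL, by 0.50. Ltb counts were whole in none of the samples. Tnf itself had 0, 0.550 and 3.07 CPM in silica and 0, 0.446, 0 and 2.95 CPM in air libraries. With this spread within each group, its fold change of 0.42 ± 1.5 (adjusted p = 0.914) was not resolved.

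Some of the receptors by which phagocytes bind antibodies, glycans and other cells rose. Of 15 Fc receptors 7 rose and 1 fell (median 0.52). Fcrl2, an Fc receptor-like protein, was at 12.2, 14.9 and 16 CPM in silica and 4.58, 3.25, 6.05 and 6.39 CPM in air libraries (1.5 ± 0.17, adjusted p = 8.17e-05). Fcar, the IgA receptor of myeloid cells, was at 4.96, 5.37 and 8.75 CPM in silica and 3.74, 2.29, 2.54 and 2.46 CPM in air libraries (1.09 ± 0.20), and Fcgr2b, the inhibitory IgG receptor, rose by 1.2. Neither Fcrl2 nor Fcar overlapped between the groups. Fcgrt, the neonatal receptor that recycles IgG and albumin, ran the other way, at 82.6, 89.6 and 95.5 CPM in silica and 115, 112, 127 and 112 CPM in air libraries (-0.38 ± 0.05, adjusted p = 0.000191). Of 36 C-type lectins and siglecs 11 rose (median 0.29) and 13 had a negative change, 3 of these called lower with all libraries, 1 without air library 05 and 0 without air library 06. Among the rises were Clec4e, a sensor of damaged cells and mycobacterial lipid (0.83 ± 0.16), and Clec4d (0.60 ± 0.13). Of 19 inhibitory and triggering receptors of phagocytes 7 rose (median 0.35), with Trem1, an amplifier of neutrophil and monocyte activation, at 12.9, 16.8 and 19.6 CPM in silica and 7.43, 7.65, 8.89 and 8.23 CPM in air libraries (1.03 ± 0.11). Lilrb4 (1.01), Havcr2, also called TIM-3 (0.95), and Trem3 (0.55) rose with it on the log2 scale.

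Genes of leukocyte traffic moved in both directions. Of 31 chemoattractant receptors 4 rose and 2 fell, and of 23 adhesion genes 5 rose and 1 fell. Cxcr2 was at 23, 28.0 and 40.9 CPM in silica and 17.1, 12.0, 14.3 and 16.5 CPM in air libraries (0.95 ± 0.16), and Cxcr1, the other receptor for these neutrophil attractants, at 8.09, 9.06 and 11.8 CPM in silica and 14.6, 17.8, 14.7 and 16.2 CPM in air libraries (-0.73 ± 0.11). The 2 receptors thus differed in direction, and neither overlapped between the groups. Ccr1 rose by 0.59 and Gpr183, an oxysterol receptor that positions leukocytes, by 0.76, while S1pr1, the egress receptor that is abundant in endothelium, gave -0.50 ± 0.08. Sele, the E-selectin of activated endothelium, was at 4.13, 5.14 and 7.96 CPM in silica and 3.15, 2.48, 3.06 and 2.15 CPM in air libraries (1.04 ± 0.20). Itgam, the alpha chain of the complement receptor Mac-1, rose by 0.79, Itgae by 0.49 and Cd44 by 0.46, and the endothelial gene Icam2 fell by 0.25. Genes tied to type 2 immunity were also mixed, with 5 of 20 higher and 3 lower in all 11 fits. Ccl17 rose by 2.08, the acidic chitinase Chia by 1.44 and the alternative activation gene Retnla by 2.33, and Alox15, a lipoxygenase of eosinophils and macrophages, fell by 1.33 on the log2 scale. Of 32 transcription factors of myeloid cells 7 rose, with Irf4 (0.83), Tfec (0.61), Irf5 (0.48) and Bhlhe40 (0.48) the largest.

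**Figure D3:**
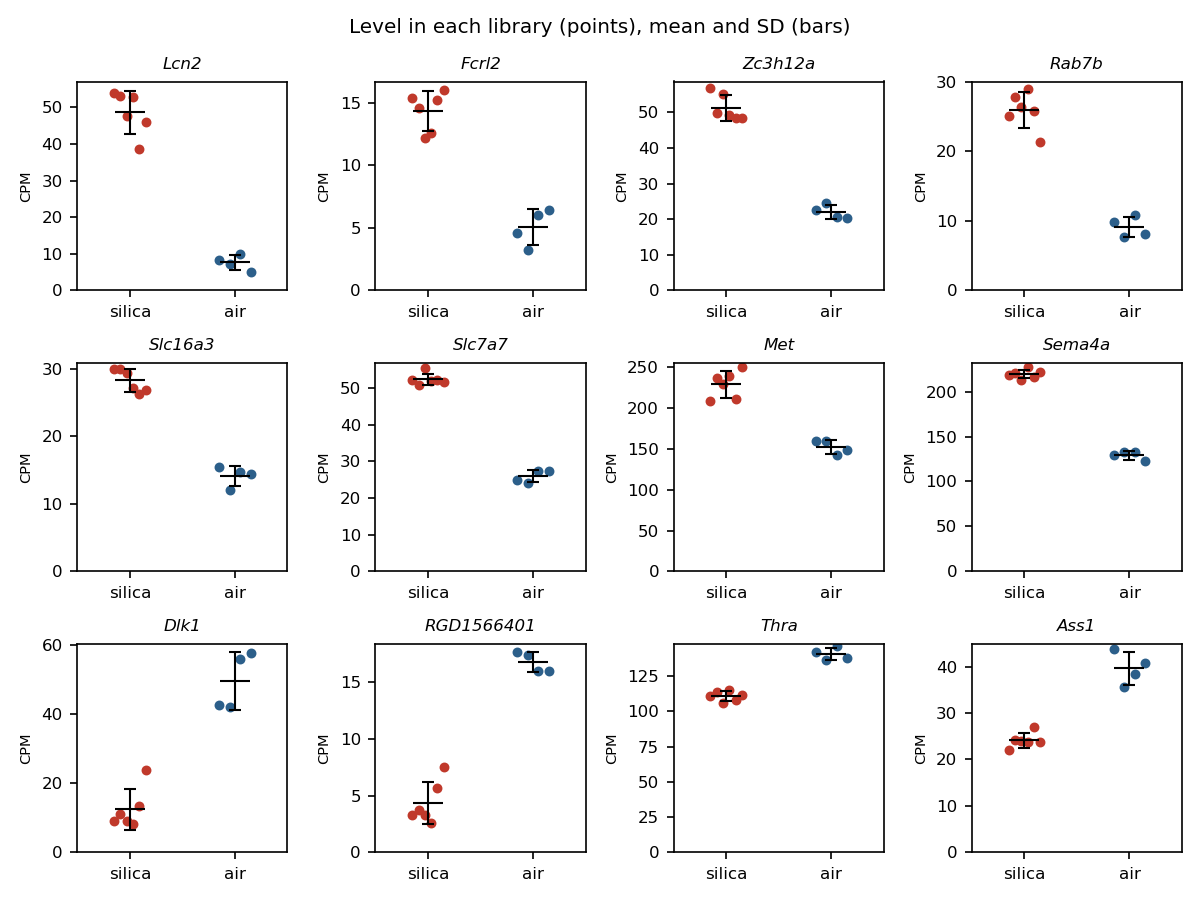
CPM of 12 genes in each library, with the 6 silica libraries left of the 4 air libraries in each panel, each point 1 library and the bars mean and SD. Silica and air libraries do not overlap in any panel, and Dlk1 is highest among silica libraries in number 15.

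Risen genes of the phagosome and lysosome encode parts of the proton pump, proteases and uptake receptors, and autophagy genes did not pass. Of 21 subunits of the vacuolar proton pump, which acidifies lysosomes, 6 rose (median 0.14). Atp6v0d2, a subunit enriched in osteoclasts and macrophages, was at 17.2, 18.4 and 18.9 CPM in silica and 4.04, 6.63, 6.13 and 5.41 CPM in air libraries (1.72 ± 0.11, adjusted p = 7.07e-07), and the catalytic subunit gene Atp6v1a at 199, 213 and 219 against 173, 166, 169 and 165 CPM (0.33 ± 0.04). The pump as a whole had a summed level of 2026 to 2114 CPM in silica and 1803 to 1841 CPM in air libraries. Of 21 lysosomal proteases and inhibitors 11 rose (median 0.25). Ctsk, a collagen-degrading cathepsin, was at 38.4, 43.8 and 52.4 CPM in silica and 17.8, 25.4, 19.2 and 20.5 CPM in air libraries (1.11 ± 0.12), and Ctsz (0.64 ± 0.05), Gpnmb (0.66 ± 0.08) and Stfa2 (0.66 ± 0.15) followed. Of 34 genes of particle uptake and phagosome maturation 6 rose, a share of 17.6%. Rab7b, a small GTPase of late endosomes, was at 21.4, 26.1 and 29.0 CPM in silica and 9.87, 7.65, 10.8 and 8.17 CPM in air libraries (1.51 ± 0.11, adjusted p = 1.54e-06), and the scavenger receptor Msr1, which binds silica particles, at 116, 121 and 132 against 68.2, 75.1, 68.0 and 62.9 CPM (0.84 ± 0.06). Cd68, a glycoprotein of macrophage lysosomes, rose by 0.95, and Rab20 by 0.45. Silica and air libraries were separate in all of these genes. Of 33 autophagy genes none passed with edgeR, limma or in all 11 fits, while 3 passed with DESeq2 and 6 had an unadjusted p under 0.05. Map1lc3b (0.05 ± 0.04, adjusted p = 0.463) and the adaptor Sqstm1 (-0.00 ± 0.04, adjusted p = 0.981) were among them.

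Cytoskeleton genes included 11 that rose and 1 that fell of 51. Capg, an actin-capping protein of macrophages, was at 96.0, 106 and 113 CPM in silica and 65.3, 67.2, 64.3 and 62.5 CPM in air libraries (0.69 ± 0.05, adjusted p = 2.81e-06). The tubulin genes Tuba1c (0.63), Tubb2b (0.60) and Tubb6 (0.60) rose, the first pair with counts whole in none of the samples. Gsn, the actin-severing gelsolin, was at 3266, 3676 and 4097 CPM in silica and 5143, 4537, 5069 and 4971 CPM in air libraries (-0.41 ± 0.07). Capg and Gsn thus moved in opposite directions, each with no overlap.

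Genes of sugar use, NADPH supply and the tricarboxylic acid cycle rose in part, and those of the respiratory chain, with 1 exception, did not pass in all 11 fits. Of 28 glycolysis genes 8 rose (median 0.20), with a summed level of 3431 to 3704 CPM in silica and 2913 to 3257 CPM in air libraries. Slc16a3, the lactate exporter MCT4, was at 26.2, 28.3 and 30.0 CPM in silica and 15.5, 12.0, 14.6 and 14.4 CPM in air libraries (1.00 ± 0.08, adjusted p = 2.47e-06). Among the hexokinases Hk3, the form of myeloid cells, rose by 0.86 and Hk2 by 0.49, whereas Hk1 gave -0.06 ± 0.05 (adjusted p = 0.535). The regulator gene Pfkfb2 rose by 0.56 and the glucose transporter gene Slc2a1 by 0.42. Of 14 genes of the pentose phosphate path and NADPH supply 8 rose (median 0.20). Idh1, the cytosolic isocitrate dehydrogenase, was at 117, 126 and 146 CPM in silica and 92.3, 89.8, 83.8 and 85.6 CPM in air libraries (0.55 ± 0.06, adjusted p = 4.27e-05). Me1 (0.42) and H6pd (0.29) also rose, and the groups did not overlap in Idh1. The letters TGACNNNGC, the core of the antioxidant response element, stand in 4 of the 11 windows of this list (36.4%) against 12.2% of all windows. They stand in 2 of the 7 genes with a window called higher with all libraries (Idh1 and Me1) and 2 of the other 4. In thioredoxin, peroxiredoxin and quinone reductase genes they stand in 7 of 31 windows (22.6%), 3 of these of genes called higher. The lysosomal CLEAR letters TCACGTGA stand in 2 of 16 proton pump and 1 of 17 lysosomal protease windows, against 0.867% of all windows. Of these, 1 and 0 belong to genes called higher. Of 30 genes of the tricarboxylic acid cycle 5 rose, Pc, which replenishes oxaloacetate, by 0.41 and Suclg1 by 0.32 among them. Of 40 genes of respiratory complexes II to V 1 rose (Sdhb, 0.19 ± 0.04). Of 36 genes of complex I none passed with edgeR, DESeq2 or limma, and 2 had an unadjusted p under 0.05.

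Lipid genes were mixed. Of 25 genes of fatty acid synthesis 5 rose and 1 fell. Fasn, the fatty acid synthase, was at 833, 956 and 1177 CPM in silica and 708, 654, 707 and 720.1 CPM in air libraries (0.49 ± 0.08), and Dgat2, which makes triglycerides, rose by 0.59. Srebf1, the transcription factor that drives this path, ran against them, at 65.0, 72.4 and 82.6 CPM in silica and 118, 95.1, 101 and 93.6 CPM in air libraries (-0.46 ± 0.08, adjusted p = 0.00216). The sterol response letters TCACNCCAC stand in none of the 21 windows of this list and in 1.13% of all windows. At so low a share an absence from 21 windows is usual and says nothing about these genes. Of 29 genes of surfactant phospholipid metabolism 7 rose and 2 fell, among them Fabp5 (0.63 ± 0.07) and Pla2g7 (0.69 ± 0.13) with rises, and the glycerol phosphate dehydrogenase gene Gpd1 (-0.54 ± 0.08) and the lysosomal phospholipase gene Pla2g15 (-0.49 ± 0.06) with falls. Abca1 and Apoe, which carry cholesterol out of cells, both fell, with Abca1 at 92.5, 97.1 and 101 CPM in silica and 175, 163, 149.5 and 188 CPM in air libraries (-0.80 ± 0.06, adjusted p = 1.06e-06), and Apoe at 374, 411 and 444 CPM in silica and 619.8, 527, 622 and 602 CPM in air libraries (-0.53 ± 0.06). Neither overlapped between the groups.

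Of 31 iron genes 11 rose (median 0.24), the largest in binding proteins of siderophores, haem, haemoglobin and iron. Hpx, which binds free haem, was at 9.42, 11.9 and 12.8 CPM in silica and 2.73, 2.48, 2.54 and 2.70 CPM in air libraries (2.12 ± 0.12, adjusted p = 1.29e-07), and Tf, transferrin, at 175, 203 and 215 against 102, 82.8, 102 and 94.8 CPM (1.06 ± 0.07). Hp, haptoglobin, rose by 1.29. The ferritin genes Fth1 (-0.14 ± 0.05, adjusted p = 0.0785) and Ftl1 (0.01 ± 0.05, adjusted p = 0.961) and the iron exporter gene Slc40a1 (0.10 ± 0.08, adjusted p = 0.498) did not pass, though ferritin counts were whole in none of the samples.

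Transport of small molecules changed at many carriers. Of 252 solute carriers tested 25 rose (9.92%) and 2 fell (0.794%). Beyond Slc26a4 the largest rises were in Slc13a3 and Slc13a2, carriers of dicarboxylates, by 1.68 and 1.19, and in Slc7a11, the cystine importer that feeds glutathione synthesis, by 1.62. Slc7a7, an exporter of cationic amino acids, was at 50.8, 52.0 and 55.4 CPM in silica and 25, 24.1, 27.3 and 27.3 CPM in air libraries (1.02 ± 0.05, adjusted p = 4.08e-08). In the arginine list 5 of 29 genes rose and 1 fell. Ass1, which remakes arginine from citrulline, was the gene that fell, at 22.1, 23.9 and 26.9 CPM in silica and 43.9, 35.6, 38.5 and 40.7 CPM in air libraries (-0.72 ± 0.07, adjusted p = 1.30e-05). Arg1, which splits arginine, rose by 0.62 and Gch1, which makes the cofactor of nitric oxide synthases, by 0.67. Slc7a7, Ass1, Arg1 and Gch1 each had silica and air libraries apart.

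Among lists of protein synthesis, the share that rose was above the 4.51% of all genes for the unfolded protein response (13.3%) and aminoacyl-tRNA synthetases (9.52%). Few genes of the other lists passed in all 11 fits. Of 30 genes of the unfolded protein response 4 rose, the disulphide isomerase genes Pdia6 (0.27 ± 0.04), P4hb (0.25 ± 0.04) and Pdia3 (0.20 ± 0.04) and the chaperone gene Calr (0.23 ± 0.05), while the stress factor gene Ddit3 gave -0.00 ± 0.08 (adjusted p = 0.995). Of 21 cytosolic aminoacyl-tRNA synthetases 2 rose, Farsb (0.37 ± 0.05) and Eprs (0.21 ± 0.04). With all libraries 11 genes of the first list and 7 of the second were called higher, against 5 to 10 and 2 to 10 with 1 left out. The first sum was 6415 to 7216 CPM in silica and 5891 to 6155 CPM in air libraries. The synthetase sum was 1625 to 1712 CPM in silica and 1476 to 1618 CPM in air libraries. Neither overlapped. Of 48 translation initiation and elongation factors 2 rose, Eif4a1 and Eif1a. Of 46 large ribosomal subunit genes and 68 spliceosome genes none passed with edgeR, DESeq2 or limma, with 1 and 4 at an unadjusted p under 0.05. Higher calls without air library 04-08 numbered 5 for the spliceosome, 12 for translation factors (4 with all libraries) and 13 of 62 for ribosome biogenesis (1 with all libraries). The large ribosomal subunit sum was 15506 to 16769 CPM in silica libraries, 19356 CPM in air library 04-08 and 15549.8 to 17030.5 CPM in the other air libraries. Of 74 chromatin genes 2 fell, Hdac7 (-0.21 ± 0.04) and Ezh1 (-0.18 ± 0.04).

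Among epithelial markers, type 2 cell genes that passed in all 11 fits mostly rose and type 1 cell genes fell. Of 20 type 2 cell markers 10 rose and 1 fell (median 0.29), and their summed level was 58342 to 66021 CPM in silica and 47160.5 to 53501 CPM in air libraries. Sftpa1, a collectin of surfactant, was at 10931, 11816 and 12382 CPM in silica and 7025, 7478, 7492 and 6843 CPM in air libraries (0.70 ± 0.06, adjusted p = 4.39e-06). Sftpd, the other surfactant collectin, rose by 0.54, Muc1 by 0.75 and Napsa, a protease that processes surfactant protein B, by 0.37, whereas Sftpb itself gave -0.05 ± 0.06 (adjusted p = 0.686). Of 22 type 1 cell markers 8 fell and none rose (median -0.12), with a summed level of 12832 to 14189 CPM in silica and 14789.8 to 15592 CPM in air libraries. Ager, the receptor RAGE, was at 1803, 1924 and 2054 CPM in silica and 2246, 2291, 2288 and 2176 CPM in air libraries (-0.22 ± 0.05), and Cav1, the coat protein of caveolae, at 1238, 1327 and 1402 against 1538, 1523, 1744 and 1747 CPM (-0.31 ± 0.06). Igfbp2 (-0.55 ± 0.11) and Rtkn2 (-0.27 ± 0.05) fell as well, and in these 4 genes no silica library reached the lowest air library. Clic5 (-0.12 ± 0.05, adjusted p = 0.183) did not pass.

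Of 28 mucins and mucosal defence genes 9 rose (median 0.39). Muc20, a membrane mucin, was at 2.01, 2.82 and 3.47 CPM in silica and 0.654, 0.637, 0.598 and 0.553 CPM in air libraries (2.19 ± 0.21, adjusted p = 2.24e-05). Of 45 ion and water transport genes 8 rose and 2 fell. Cftr, the chloride channel, was at 11.3, 14.5 and 16.8 CPM in silica and 8.44, 7.65, 9.12 and 7.56 CPM in air libraries (0.83 ± 0.11, adjusted p = 0.000268), and Tmprss4, a protease that activates the epithelial sodium channel, at 30.8, 34.5 and 37.4 against 20.2, 16.8, 17.7 and 14.4 CPM (1.00 ± 0.09). The channel subunit genes Scnn1a (-0.15 ± 0.06, adjusted p = 0.159) and Scnn1b (-0.02 ± 0.07, adjusted p = 0.885) did not pass. The water channel gene Aqp1 (-0.31 ± 0.06), whose silica and air libraries overlap, was 1 of those that fell. Of 29 antiproteases 6 rose and 2 fell, Serpina3n by 1.46 among the rises, and Serpind1 (-0.84 ± 0.17) and Serpinb10 (-0.76 ± 0.09) the falls.

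**Figure D4:**
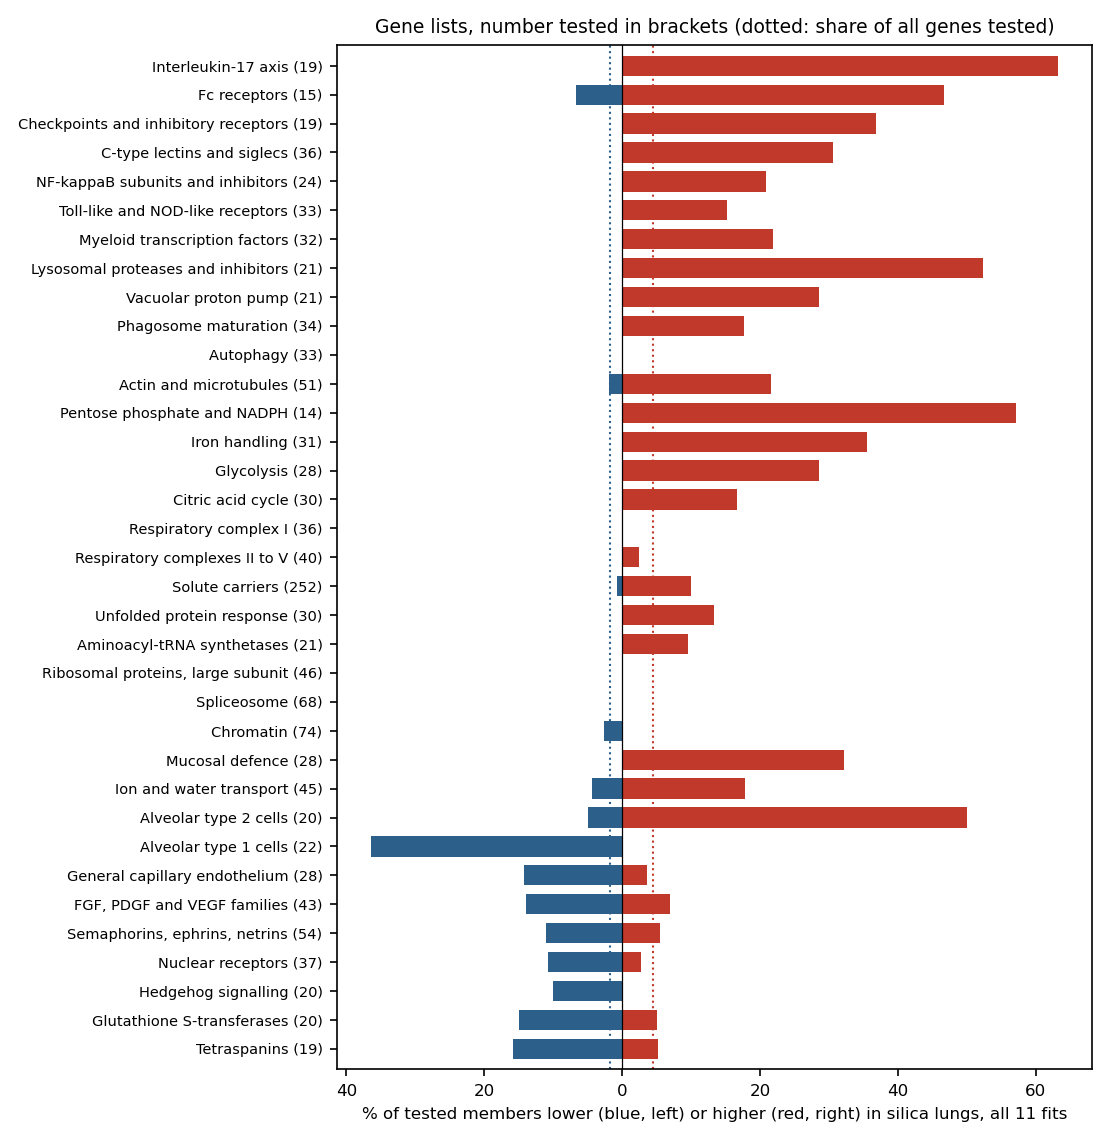
Genes of 35 lists that passed in all 11 fits, as percent of the genes tested in each list, lower genes to the left and higher genes to the right of 0, with the shares over all 15724 genes (1.72% and 4.51%) as dotted lines. The interleukin 17 list reaches furthest to the right, and the type 1 cell list furthest to the left.

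General capillary, growth factor and guidance genes held more falls than rises in all 11 fits. The other endothelial lists did not, though most of their genes had a negative change. Of 28 markers of general capillary endothelium 4 fell and 1 rose (median -0.16), and their summed level was 9071 to 10319.8 CPM in silica and 9899.9 to 12067 CPM in air libraries, which overlap. Cldn5, a tight junction protein of endothelium, was at 310.0, 336 and 356 CPM in silica and 450.1, 365, 494 and 481 CPM in air libraries (-0.43 ± 0.08), and Egfl7 gave -0.29 ± 0.06. Of 28 markers of large vessel and lymphatic endothelium 2 rose and 0 fell, and 19 had a negative change (median -0.06). Of 18 aerocyte markers 1 rose and 1 fell, and 15 had a negative change (median -0.12). The aerocyte sum was 4313 to 4868 CPM in silica and 4948 to 5287 CPM in air libraries, without overlap. Pecam1, a marker of all endothelium, gave -0.09 ± 0.05 (adjusted p = 0.263). Of 43 genes of the FGF, PDGF and VEGF families and related factors 6 fell and 3 rose (median -0.11). Met, the receptor for hepatocyte growth factor, was at 208, 232 and 250.0 CPM in silica and 159, 159, 142 and 148 CPM in air libraries (0.59 ± 0.06, adjusted p = 2.62e-05), and the vessel factor gene Angptl1 rose by 1.52, while Fgfr4 gave -0.38 ± 0.06. Of 54 semaphorins, ephrins and netrins 6 fell and 3 rose. Sema4a, which also acts on T cells, was at 213, 219 and 227 CPM in silica and 129, 133, 133 and 122 CPM in air libraries (0.76 ± 0.04, adjusted p = 4.08e-08), and Epha4 at 24, 27.4 and 30.5 against 37.7, 40.1, 37.3 and 39.3 CPM (-0.51 ± 0.06). Met and Sema4a were higher in each silica library than in any air library, and Epha4 lower.

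Of 37 nuclear receptors 4 fell and 1 rose (median -0.10). Thra, a thyroid hormone receptor, was at 106, 112 and 115 CPM in silica and 143, 137, 146 and 138 CPM in air libraries (-0.34 ± 0.04, adjusted p = 5.13e-05), and Rarb, a retinoic acid receptor, fell by 0.35 and the orphan receptor gene Esrrb by 1.02. Nr4a3, an immediate early receptor, was the one that rose, at 8.70, 10.1 and 11.8 CPM in silica and 2.97, 4.46, 2.99 and 2.95 CPM in air libraries (1.60 ± 0.14). Of 20 Hedgehog genes 2 fell, Hhip, an inhibitor that binds the ligand (-0.45 ± 0.06), and Disp1, which releases it (-0.26 ± 0.06), and the target Ptch1 gave -0.15 ± 0.08 (adjusted p = 0.252). Of 33 Notch genes 3 fell, Dlk1, the tip cell ligand gene Dll4 (-0.28 ± 0.06) and Mfng (-0.26 ± 0.06). Of 20 glutathione S-transferases 3 fell, among them Gstp1 (-0.33 ± 0.05, adjusted p = 0.000418), and 1 rose (Gsto1, 0.23 ± 0.04). Of 19 tetraspanins 3 fell and 1 rose (Tspan11, 1.85 ± 0.17).

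Dlk1, an imprinted non-canonical Notch ligand, and RGD1566401 gave 2 of the largest falls. RefSeq GRCr8 lists RGD1566401 as a synonym of Meg3, an imprinted long non-coding RNA that neighbours Dlk1 in that assembly. Dlk1 was at 9.01, 11, 9.17, 8.23, 13.5 and 23.7 CPM in silica libraries 10 to 15 and 42.7, 41.9, 55.9 and 57.6 CPM in air libraries (-1.99 ± 0.29, adjusted p = 0.00286). RGD1566401 was at 3.33, 3.76, 3.29, 2.62, 5.69 and 7.55 CPM in the same silica libraries and 17.7, 17.5, 16 and 16 CPM in air libraries (-1.94 ± 0.25, adjusted p = 0.000708). Silica library 15 was the highest of the silica libraries in both genes and still below every air library. Of 7 other neighbours examined, chosen after these values were seen, Degs2 rose (1.09 ± 0.21), and Begain (-0.31 ± 0.49), Wars (-0.00 ± 0.07), Yy1 (0.03 ± 0.07), Evl (-0.18 ± 0.07), Slc25a29 (-0.24 ± 0.18) and Ppp2r5c (-0.10 ± 0.04) did not pass.

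Other large falls were spread over genes of different kinds. Tac1, the precursor gene of substance P, was at 0.105, 0.261 and 0.327 CPM in silica and 1.19, 1.78, 2.24 and 0.983 CPM in air libraries (-2.65 ± 0.33, adjusted p = 0.000164), without overlap. In silica libraries 3 counts are 0.156 to 0.203 CPM, so its level there rests on few counts and the size of the fall is uncertain. RGD1566226, a synonym of the signal regulatory protein gene Sirpb3 in RefSeq GRCr8, fell by 1.39, the lipid-mobilising gene Azgp1 by 0.85, the tight junction gene Cldn8 by 0.85, the potassium channel gene Kcnh4 by 0.87 and the glycosyltransferase gene Galnt14, whose libraries overlap, by 0.85. Among the largest falls of genes at 100 CPM or more were the adhesion gene Amigo2 (-0.82 ± 0.11), the secreted phospholipase gene Pla2g2d (-0.61 ± 0.08) and Tril, an accessory protein of Toll-like receptors (-0.51 ± 0.05).

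Small changes also passed in all 11 fits, where libraries were close to each other. The lysosomal enzyme gene Glb1 was at 63.0 ± 2.36 CPM in silica (mean ± SD, n = 6) and 51.2 ± 0.708 CPM in air libraries (n = 4), a log2 fold change of 0.30 ± 0.04 (adjusted p = 0.000305). Fuca1, another lysosomal hydrolase, was at 78.4 ± 1.31 CPM in silica and 64.7 ± 2.59 CPM in air libraries (0.28 ± 0.04). Plp2 (0.28 ± 0.04), Mgrn1 (0.26 ± 0.04) and Lasp1 (0.26 ± 0.04) rose by similar amounts, and Pnkd (-0.28 ± 0.04) fell. Abundant genes with intervals within 1.2-fold included B2m, the light chain of class I molecules, at 3129.6 ± 198 CPM in silica and 3133 ± 334 CPM in air libraries (-0.00 ± 0.07), and the spectrin gene Sptbn1 (-0.13 ± 0.05).

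Cell division genes were higher in silica than in most air libraries, and the number called turned on air library 04-08. Of 59 mitosis genes 58 had a positive log2 fold change, with a median of 0.57, and 2 were called with all libraries, against 52 without air library 04-08. The summed level was 586 to 879 CPM in silica libraries, 930 CPM in air library 04-08 and 366 to 376 CPM in the other 3 air libraries. Of 51 S phase genes 46 had a positive change (median 0.25), and 1 was called with all libraries and 31 without air library 04-08. Mki67, a marker of dividing cells, was at 48.4, 56.8 and 89.7 CPM in silica and 18.8, 102, 20.7 and 21.3 CPM in air libraries (0.57 ± 0.53, adjusted p = 0.583). Prc1, a protein of the dividing spindle, passed in all 11 fits at 31.3, 33.3 and 37.6 CPM in silica and 17.1, 23.2, 15.5 and 11.2 CPM in air libraries (1.02 ± 0.16).

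**Figure D5:**
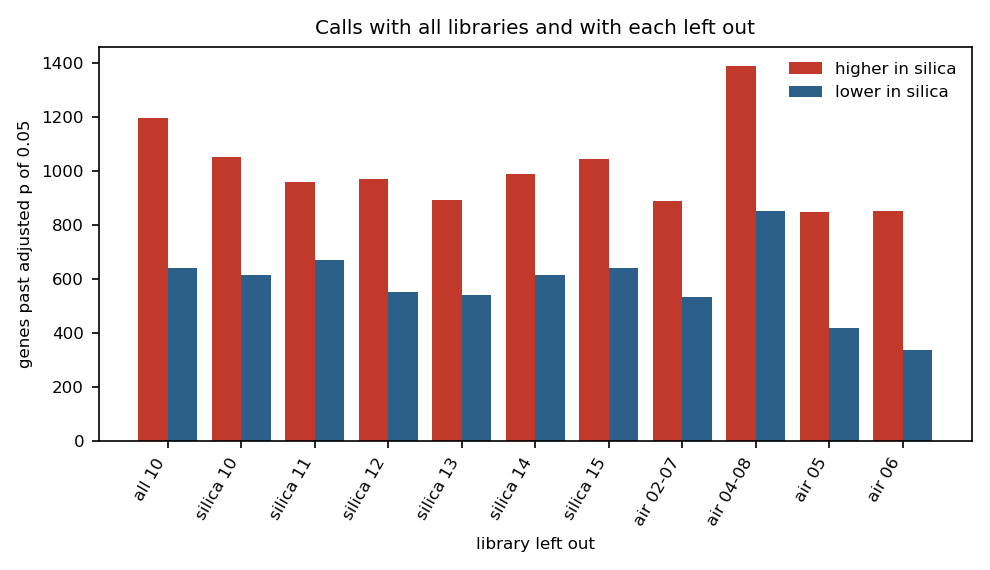
Genes called higher and lower with all libraries and with each library left out. Without air library 04-08 there are 1389 higher and 851 lower genes, and without air library 06 there are 851 higher and 337 lower.

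Of 2302 tested genes without a standard symbol, 46 rose and 24 fell. LOC100911882, named after its values were seen, was listed at 0 in each air library and at 11.1, 15.5 and 16.8 CPM in silica libraries. Set against a floor of 3 counts per library, its mean level was at least 65.9-fold higher in silica, and at least 49.4-fold with the lowest silica library. Among lower genes, LOC102547830 fell by 1.13, LOC103692648 by 1.00 and LOC102548079 by 0.87 on the log2 scale.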

How the data were processed

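The authors deposited Salmon's estimated counts per gene for lung at 1 day, not scaled to depth or gene length. Per the submitters' processing notes the tools were bcl2fastq 2.19, cutadapt 3.4, Trim Galore 0.6.7, STAR 2.6.1d and Salmon 1.10.1, and the build was Rnor_6.0. Which annotation release they used is not stated. Salmon shares reads among similar transcripts, so a count need not be whole (tolerance 1e-06), and levels of such genes are uncertain. Among printed genes, counts were whole in none of the samples for Zc3h12a, Ltb, Tuba1c, Tubb2b, Fth1, Ftl1 and Map1lc3b, and not whole in at least 50% for Slc40a1, Cd177, Cd44, Ppp2r5c, Slc7a7, Nlrp3 and Icam2. Each of the 2 near-identical air pairs was averaged, and counts were then rounded.

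Genes were kept by edgeR's filterByExpr (a count of 10 in enough libraries, 15 in all). The silica effect was tested in R 4.3.3 with edgeR 4.0.16 (TMM scaling, robust quasi-likelihood F test), with Benjamini-Hochberg adjustment over 15724 genes and a threshold of 0.05. CPM are counts scaled to library size after TMM adjustment (factors 0.985 to 1.02). A floor of 3 counts covers counting error only. Alternatives used each library left out, RLE size factors, no filter, each sample on its own, 1 sample of each pair, limma 3.58.1 (prior count 2) and DESeq2 1.42.0. On simulated counts the test called 60.0%, 62.0%, 80.0% and 92.0% of genes changed 1.25-fold, 1.5-fold, 2-fold and 4-fold.

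The members, the gene lists and the rule for named genes were chosen with earlier results of these data known. The rule takes, among genes at 1 CPM or more in a group that passed in all 11 fits, the rises of rank 9 to 24, the 14 largest falls, the 8 largest rises and falls at 100 CPM or more, up to 4 members of each list with the largest change, the 6 changes under 0.3 on the log2 scale with the smallest adjusted p, and abundant genes with narrow intervals. Other genes were named as defining genes of a list or after their values were seen. Promoters come from RefSeq (GRCr8), and coordinates are given for them only.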

Additional observations from a re-analysis of the deposited data

Results flagged for a closer look

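In 17 of 177 groups of values examined 1 library lay far from the others, by the gap to its neighbour relative to the whole range, and chance flags about 1 in 20 groups. Air library 04-08 was the highest air library for the mitosis sum (930 CPM, next 376), the S phase sum (1126 CPM, next 750.4), Mki67 (101.8 CPM, next 21.3), the natural killer cell sum (1384 CPM, next 662) and Nr4a3 (4.46 CPM, next 2.99). Silica library 13 was the highest silica library for the neutrophil sum (1737 CPM, next 1425), S100a9 (479 CPM, next 352), Cxcr2 (40.9 CPM, next 29.0) and Fcar (8.75 CPM, next 5.61). Air library 02-07 was the highest air library for the neutrophil sum (529 CPM, next 455) and Fcar (3.74 CPM, next 2.54), still below every silica library. Silica library 10 was highest for the T cell sum (544 CPM, next 412) and Mki67 (89.7 CPM, next 62.0), and lowest for the type 2 cell sum (58342 CPM, next 64419). Dlk1 was highest in silica library 15 (23.7 CPM, next 13.5), Slc7a7 in silica library 12 (55.4 CPM, next 52.2) and Tnf in air library 06 (2.95 CPM, next 0.446).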

How the results depend on the processing

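The 1836 genes called with all libraries became 1188 to 2240 with 1 library left out, and the 640 lower genes became 337 to 851. With each of the 12 samples entered on its own the lower genes numbered 1035. The 6566 genes with an interval within 1.2-fold became 11977 within 1.5-fold. Other totals, with RLE size factors (1849), no filter (1705), 1 sample of each pair (1795), limma (1857) and DESeq2 (2137), stayed within 1.5 times, and no result reversed under any of the alternatives run. Of 840 counts of list members compared across alternatives other than leaving out a library, 14 with at least 3 genes called moved by more than 1.5 times. Among them, the lower Notch genes numbered 3 with all libraries, 7 with each sample on its own and 8 with DESeq2, the lower chromatin genes 3 against 6 with each of those, and the higher unfolded protein response genes 11 against 7 without the filter. Of 224 named genes that were called, between 0 and 5 no longer passed under any 1 alternative. The naming rule mostly drew on genes that passed in all 11 fits, so fits with 1 library left out give no separate check of them. Of all 1836 genes called, 980 passed in all 11 fits. No paired analysis was possible because silica and air samples share no replicate number. Depth limits low genes: at 13.4 M to 19.2 M counts, 3 counts are 0.156 to 0.224 CPM. The air group rests on 4 libraries, and libraries 05, 06 and 04-08 move the counts most.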
